A study of Mus musculus with 16 samples.

Results

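The potassium channel genes described here are the protein-coding genes whose symbol starts with Kcn, apart from Kcnj10 and Kcnj13. The rule uses symbols alone, and it found 92 members among 55487 genes. The samples were right hippocampi of PBS-perfused female mice, profiled by RNA-seq in 16 libraries, 4 for each of 4 genotypes. WT mice were wild type. CKO mice lacked Ch25h, which encodes cholesterol 25-hydroxylase. T mice carried PS19, a transgene in which the PrP promoter drives human MAPT of the 1N4R form with the P301S mutation. TCKO mice carried the transgene and lacked Ch25h. Neither WT nor CKO mice carried the transgene. The age was labelled 40 weeks in one field and 9.5 months in another, the same for all libraries. The T and TCKO groups rest on 1 transgenic line whose promoter, not that of MAPT, sets where human tau is made. Replicates are numbered in the labels (1, 2, 4 and 5 in WT and CKO, 2, 3, 4 and 5 in T and TCKO), and library values below follow that order. Nothing in the labels states that each library came from a separate mouse, and the p-values given here speak of the spread among libraries, which may be technical.

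Library totals ran from 15064309 to 34348284 estimated reads. Ch25h had 18, 25, 20 and 40 reads in WT and 300, 149, 154 and 133 in T, against 2, 0, 0 and 1 in CKO and 0, 1, 1 and 0 in TCKO. The counts follow the labelled genotypes. All 10 hippocampal subfield markers had reads in every library, such as Prox1 of dentate granule cells (24.0 to 87.1 CPM, reads scaled to library size) and Wfs1 of CA1 (38.0 to 117 CPM). Their levels differed between libraries, also within a genotype. Dsp, another of the 10, ran from 1.55 to 22.5 CPM over all libraries and from 1.55 to 21.3 CPM within WT. The summed level of 10 choroid plexus markers was 11415 CPM in WT replicate 1 and 11448 CPM in T replicate 4, and between 153 and 1160 CPM in the other 14 libraries.

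Potassium channels let K+ leave the cell down its gradient, which sets the resting potential, ends the action potential and spaces repetitive firing. Their pore subunits fall into voltage-gated, inward-rectifying, two-pore leak and calcium- or sodium-activated families, and auxiliary subunits without a pore of their own change the gating or surface level of the pores. Neurons use most of these families, while microglia rely on a small set of leak and inward-rectifier channels for their resting potential and for K+ efflux.

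Promoters are shown for Kcne1l, Kcnk13 and Kcnj2, which were higher in T than in WT, and for Kcnt2 and Kcnj3, which were lower. They were picked among called members with a RefSeq promoter window, and Kcnk6, which had a smaller p-value than Kcnk13 and Kcnj2, had no window to show. The picks do not follow the p-values throughout. Kcnh2, also higher in T and with a smaller p-value than Kcnj2, had a window but is not shown. The 150 bases from each window (mouse GRCm38.p6) set the promoters of both directions side by side. They end just before the GENCODE gene start given below, except for Kcnt2, where they end just before the start site of the RefSeq window, which lies upstream of the GENCODE start. They lie at chrX:142306295-142306444 on the minus strand for Kcne1l, and on the plus strand at chr12:99964349-99964498 for Kcnk13, chr11:111066014-111066163 for Kcnj2, chr1:140245568-140245717 for Kcnt2 and chr2:55435820-55435969 for Kcnj3. Capitals mark GAGGAA or, on the other strand, TTCCTC, the core letters that the myeloid factor PU.1 is known to bind.
Kcne1l: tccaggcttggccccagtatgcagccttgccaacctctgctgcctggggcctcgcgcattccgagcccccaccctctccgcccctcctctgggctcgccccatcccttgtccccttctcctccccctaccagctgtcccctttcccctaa
Kcnk13: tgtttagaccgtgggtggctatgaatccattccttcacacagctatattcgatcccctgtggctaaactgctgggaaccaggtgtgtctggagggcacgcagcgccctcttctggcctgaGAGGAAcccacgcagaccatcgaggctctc
Kcnj2: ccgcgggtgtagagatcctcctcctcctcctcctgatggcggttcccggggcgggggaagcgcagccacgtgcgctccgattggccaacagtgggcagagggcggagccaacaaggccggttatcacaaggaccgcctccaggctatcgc
Kcnt2: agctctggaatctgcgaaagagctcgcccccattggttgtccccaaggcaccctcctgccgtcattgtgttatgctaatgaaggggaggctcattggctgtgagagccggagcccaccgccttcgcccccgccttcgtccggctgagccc
Kcnj3: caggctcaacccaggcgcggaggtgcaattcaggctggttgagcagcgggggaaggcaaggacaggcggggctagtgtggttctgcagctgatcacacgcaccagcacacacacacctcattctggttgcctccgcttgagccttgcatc
RefSeq windows of 300 bases were at hand for 67 of the 92 members, 92 windows in all. GAGGAA or TTCCTC occurred in 27 of these windows (29.3%), against 28.3% of all 32851 windows. Among the stretches printed, the Kcnk13 promoter holds 1 match, and the other 4 hold none. The full Kcnj2 window holds 2 matches outside the printed stretch. The Kcnh2 window, which is not shown, holds 0 matches. The 5 full windows contain 12 (Kcne1l), 9 (Kcnk13), 18 (Kcnj2), 12 (Kcnt2) and 10 (Kcnj3) CG pairs, against a median of 9 over the member windows and 7 over all. A match describes the letters and no more.

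Levels were compared between genes in TPM, a share of all transcripts that is corrected for gene length. Of the 92 members, 61 had a mean of at least 1 TPM over the 16 libraries, 22 had at least 10, and 12 were under 0.1. Auxiliary subunits stood at the top. Kcnab2, a beta subunit of Kv1 channels, had a mean of 238 TPM and its relative Kcnab1 had 83.4 TPM, and these 2 genes made up 32.1% of the 1003 TPM summed over all members. The Kcnip genes, which encode the KChIP subunits of Kv4 channels, held 14.3% of the sum, with Kcnip3 at 47.2 TPM, Kcnip4 at 46.9 and Kcnip2 at 39.7.

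Among pore subunits the leak channel gene Kcnk1 (TWIK-1) was highest at 73.6 TPM. It was followed by Kcnj3, the GIRK1 subunit that opens on G protein signals, at 28.7 TPM. Kcna1 (Kv1.1) of axons had 28.4 TPM and Kcnd2 (Kv4.2), the A-type channel of dendrites, 26.7 TPM. Kcnma1, the BK channel, had 20.1 TPM, and the silent modifier Kcnv1 18.8 TPM. Kcnc1 had 12.2 TPM and Kcnh1 5.69 TPM. Kcne1l had a mean of 12.2 TPM over genotypes that differed widely, at 28.8 ± 2.85 TPM in T, 8.22 ± 0.802 in TCKO, 6.27 ± 1.41 in WT and 5.62 ± 1.74 in CKO. The leak channel genes known from macrophages and microglia were lower. Kcnk6 had 0.310 ± 0.107 TPM in WT and 1.22 ± 0.231 in T (SD, n = 4 each), and Kcnk13 had 2.47 ± 0.841 and 6.42 ± 2.52 TPM.

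**Figure D1:**
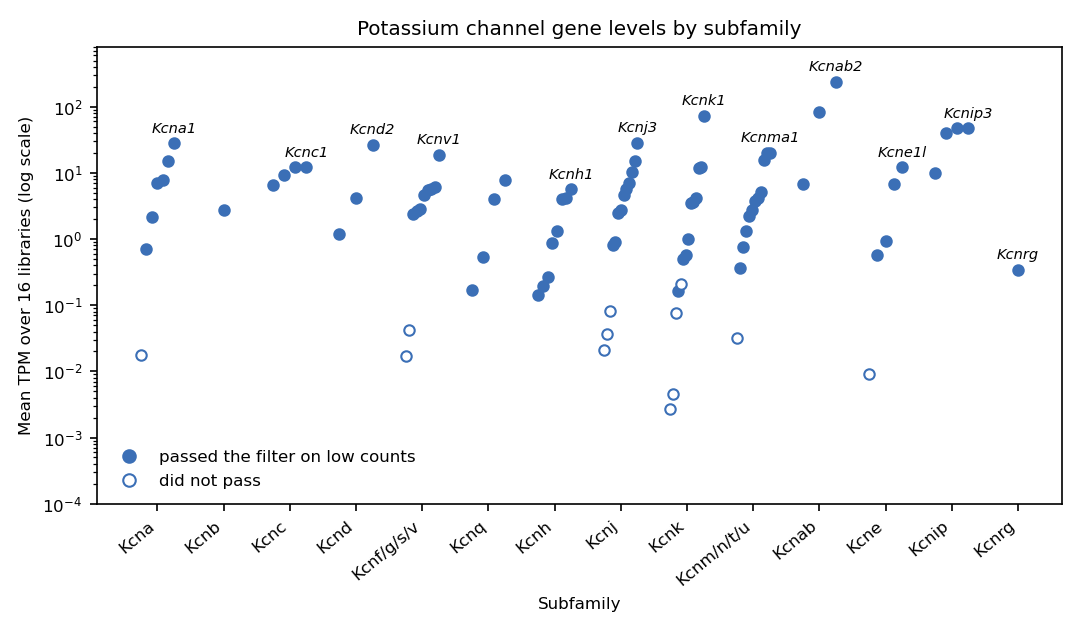
Mean TPM over the 16 libraries (vertical axis, log scale) of 89 potassium channel genes by subfamily (horizontal axis); each point is 1 gene, filled where it passed the filter on low counts, and Kcna7, with 0 reads, is not drawn. Labels name the top gene of most subfamilies, and Kcnab2 stands highest at 238 TPM.

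The filter on low counts, run over the whole table, kept 18565 genes and 79 of the 92 members. The 13 that did not pass were Kcnk12, Kcnj5, Kcnk15, Kcng3, Kcnj15, Kcnmb3, Kcnj1, Kcna10, Kcnv2, Kcne1, Kcnk18, Kcnk16 and Kcna7, with at most 112 reads over all libraries. Kcna7 had 0 reads in every library, and 3 counts correspond to 0.0873 to 0.199 CPM at these depths. For these genes a difference between genotypes was not detectable at this depth.

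The first comparison, T against WT, asks how the tau transgene moved these genes in mice with intact Ch25h. Of the 79 members tested, 5 rose and 5 fell at an adjusted p under 0.05 in edgeR's quasi-likelihood test with Benjamini-Hochberg adjustment over all genes. Over all genes, 13% were called higher and 11.2% lower, so 10 of 79 members is a smaller share than the background. The median log2 fold change of the members was -0.12, against -0.01 for all genes. Of the 79 values, 49 were negative (62.0%, against 51.3% of all genes). In 14 members the 4 T libraries lay wholly above or below the 4 WT libraries, which held for 25.1% of all genes. The 5 that rose were Kcne1l, Kcnk6, Kcnk13, Kcnh2 and Kcnj2, and the 5 that fell were Kcnt2, Kcnj3, Kcng1, Kcnh1 and Kcnv1. Without WT replicate 5 there were 3 higher, and without T replicate 5 there were 9 lower, Kcnip2 among them. With a replicate block over all libraries there were 4 higher and 4 lower. Under a replicate block without the 2 libraries rich in choroid plexus markers, an alternative chosen after seeing the data, Kcne1l and Kcnk6 stayed higher and Kcnt2 lower, and the adjusted p of the other 7 ran from 0.0538 to 0.157.

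Kcne1l (ENSMUSG00000090122, chrX:142304752-142306294, GRCm38) encodes an auxiliary subunit of the KCNE family that binds voltage-gated pores. Its level, in CPM scaled by TMM, was 6.36, 5.52, 4.82 and 8.01 in WT, and 31.7, 26.9, 26.4 and 26.0 in T. Every T library lay far above the highest WT library. The mean was 27.8 ± 2.66 CPM in T and 6.18 ± 1.38 in WT (SD, n = 4 each), a log2 fold change of 2.17 ± 0.20 (SE; edgeR adjusted p = 1.64e-06). The call held in all 27 alternative analyses, and the annotation lists no gene that overlaps it.

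Kcnk6 (ENSMUSG00000046410, chr7:29221926-29232515) encodes TWIK-2, a leak channel through which macrophages are known to lose K+. It stood at 0.872, 1.16, 1.22 and 0.494 CPM in WT and 4.39, 3.74, 3.97 and 2.65 CPM in T. The groups did not overlap, and the lowest T library was T replicate 5. The rise on the log2 scale was 1.97 ± 0.30 (edgeR adjusted p = 0.000181), past the threshold in all 27 alternatives.

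Kcnk13 (ENSMUSG00000045404, chr12:99964499-100062682) encodes THIK-1, the main leak channel of microglia. Its levels were 4.49, 7.09, 6.44 and 3.11 CPM in WT and 19.96, 14.9, 11.8 and 7.37 CPM in T. T replicate 5 lay just above the highest WT library, and T replicate 2 lay highest, so the spread within T was wide (13.5 ± 5.3 CPM against 5.28 ± 1.82). On the log2 scale the change was 1.35 ± 0.28 (edgeR adjusted p = 0.00235), and 26 of 27 alternatives called it.

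Kcnh2, which encodes the ERG1 channel, and Kcnj2, which encodes the inward rectifier Kir2.1, rose with less certainty. Kcnh2 (ENSMUSG00000038319, chr5:24319589-24351604) stood at 1.71, 1.78, 1.37 and 1.38 CPM in WT and 3.28, 2.68, 3.58 and 3.09 CPM in T. These groups did not overlap, and the log2 fold change was 1.01 ± 0.29 (edgeR adjusted p = 0.0182). With a replicate block the adjusted p was 0.0652, without WT replicate 5 it was 0.0535, and without WT replicate 1 and T replicate 4 together it was 0.0628. Kcnj2 (ENSMUSG00000041695, chr11:111066164-111076821) had 4.07, 11.6, 11.2 and 2.47 CPM in WT and 18.4, 22.5, 15.4 and 14.2 CPM in T. All T libraries exceeded all WT libraries, but the WT libraries split into a low pair (replicates 1 and 5) and a high pair (replicates 2 and 4). Its log2 fold change was 1.26 ± 0.40 (edgeR adjusted p = 0.0289). The call was lost without WT replicate 1 (adjusted p = 0.0839), WT replicate 5 (0.0673), T replicate 2 (0.0656) or T replicate 3 (0.0741).

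The channels known from microglia and macrophages form a list of 5: Kcnk6, Kcnk13, Kcnj2, Kcna3 and Kcnn4. Of these, 3 rose in T, none fell and 2 did not pass, and the median log2 fold change was 1.35. Kcnn4, the intermediate-conductance calcium-activated channel, had 6, 10, 6 and 0 reads in WT and 25, 22, 31 and 13 reads in T. The groups did not overlap, yet the log2 fold change of 2.04 ± 0.95 did not pass (edgeR adjusted p = 0.132) at counts this low. Kcna3, the Kv1.3 channel of immune cells that neurons also express, had 3.26, 1.63, 2.05 and 3.81 CPM in WT and 2.61, 2.24, 1.38 and 2.56 CPM in T, which overlap (log2 fold change -0.29 ± 0.36, edgeR adjusted p = 0.608). In the same comparison 9 of 10 microglia markers rose, and their summed level was 531 to 750 CPM in WT and 2548 to 3413 CPM in T. In tissue of mixed cells, more cells of a type and more RNA per cell cannot be told apart, and the part of microglial number in these values was not tested.

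**Figure D2:**
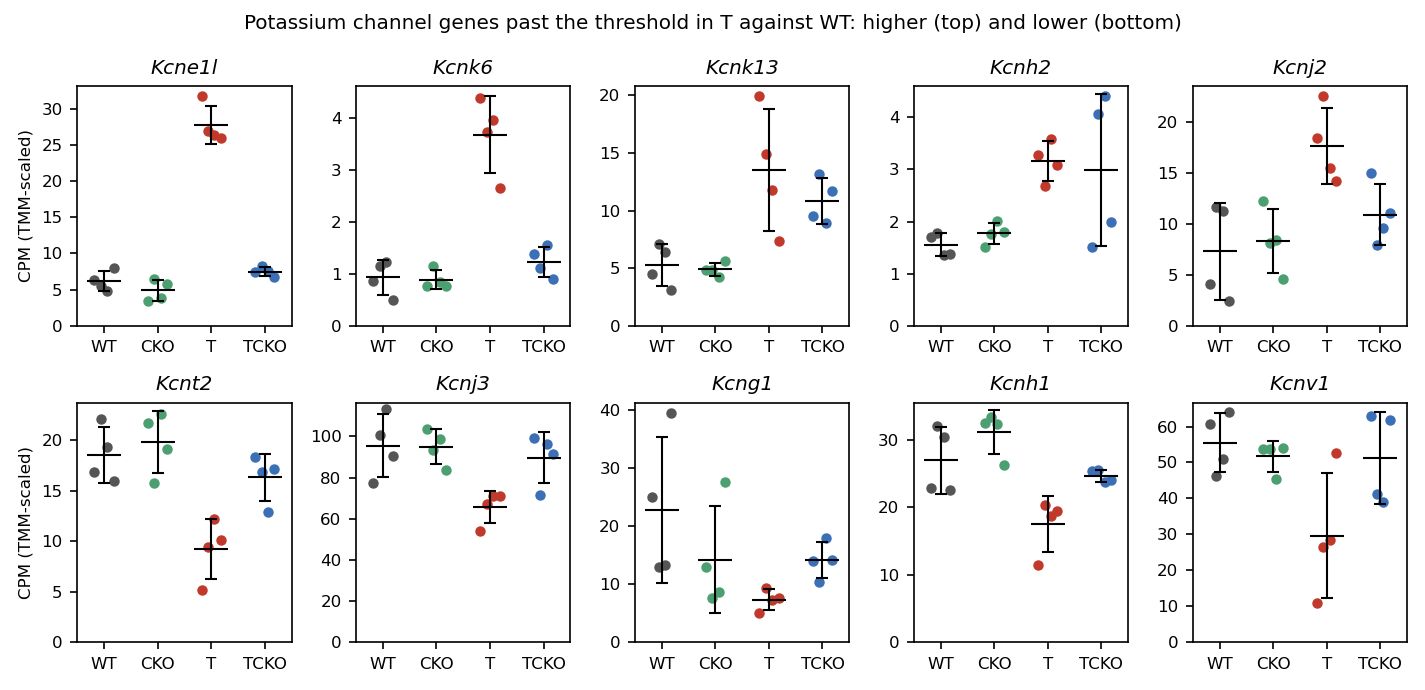
TMM-scaled CPM (vertical axes, from 0) in the 4 genotypes (horizontal axes) for the 10 potassium channel genes past the threshold in T against WT; points are libraries, the bar is the mean and the whiskers are the SD of 4 libraries. Kcne1l stands at 26.0 to 31.7 CPM in T and at 3.40 to 8.24 CPM in every other library, and Kcnv1 in T spans 11.0 to 52.7 CPM.

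The genes that fell encode pores or modifiers known from neurons. Kcnt2 (ENSMUSG00000052726, chr1:140246158-140612067) encodes Slick, a sodium-activated channel. It stood at 16.9, 22.1, 19.3 and 15.96 CPM in WT and 5.22, 9.45, 12.2 and 10.1 CPM in T. The groups did not overlap, and T replicate 2 was the lowest. On the log2 scale the change was -1.01 ± 0.21 (edgeR adjusted p = 0.00229), a call made in all 27 alternatives.

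Kcnj3 (ENSMUSG00000026824, chr2:55435970-55598145), the GIRK1 subunit, had 77.3, 101, 114 and 90.7 CPM in WT and 54.2, 67.1, 70.9 and 70.9 CPM in T. The groups did not overlap, and the fall was modest, at a log2 fold change of -0.54 ± 0.13 (edgeR adjusted p = 0.00674). Kcnh1 (ENSMUSG00000058248, chr1:192190774-192510159), the EAG1 channel, had 22.8, 32.1, 30.4 and 22.6 CPM in WT and 11.4, 20.4, 18.7 and 19.5 CPM in T. Here too every T library lay below every WT library (log2 fold change -0.62 ± 0.16, edgeR adjusted p = 0.0106). The call on Kcnh1 was lost when only the 8 WT and T libraries were fitted (adjusted p = 0.0535).

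Both silent modifiers that fell encode subunits that form no channel alone and join Kv2 pores. Kcng1 (ENSMUSG00000074575, chr2:168260117-168281736) stood at 25.0, 12.96, 13.2 and 39.5 CPM in WT and 5.09, 9.38, 7.26 and 7.65 CPM in T, with no overlap and a log2 fold change of -1.63 ± 0.40 (edgeR adjusted p = 0.00733). WT replicates 1 and 5 were the high pair here and the low pair for Kcnj2. The same pair had the lower oligodendrocyte marker medians, at -0.62 and -1.08 on the log2 scale around the WT mean. Replicates 2 and 4 had 0.77 and 0.93. Hippocampal subfield medians were also lower in that pair (-0.36 and -0.28, against 0.25 and 0.42). Single subfield markers went either way. Dsp had 1.55 and 2.12 CPM in the pair against 15.3 and 21.3, and Fibcd1 had 113 and 139 CPM against 62.3 and 72.2. The part of these differences in Kcng1 and Kcnj2 was not tested. Kcnv1 (ENSMUSG00000022342, chr15:45106284-45114920) had 60.8, 46.2, 51.1 and 64.0 CPM in WT and 11.0, 26.6, 28.5 and 52.7 CPM in T. T replicate 5 lay within the WT range, and the spread in T was 17.2 CPM around a mean of 29.7. The log2 fold change of -0.90 ± 0.31 (edgeR adjusted p = 0.0419) was called in 9 of 27 alternatives, and the adjusted p with the replicate block was 0.069.

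Of 10 pan-neuronal markers, 8 also fell in T, and their summed level was 8912 to 10164 CPM in WT and 5799 to 8496 CPM in T, so the libraries did not overlap. The part of neuronal RNA content in the lower channel values was not tested. Several abundant neuronal channels were not past the threshold in edgeR. The log2 fold change was -0.48 ± 0.19 for Kcnab1 (adjusted p = 0.0738), -0.28 ± 0.20 for Kcnd2 (0.33), -0.25 ± 0.17 for Kcnma1 (0.328) and -0.13 ± 0.17 for Kcnab2 (0.639). Kcna1, at 0.21 ± 0.15 (0.322), Kcnk1, at 0.09 ± 0.17 (0.751), and Kcnip3, at 0.03 ± 0.12 (0.899), lay on the other side of 0.

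By subfamily, the calls were spread thinly. The Kcnk group had 2 of 10 tested members higher and none lower, and the modifiers Kcnf, Kcng, Kcns and Kcnv had 2 of 8 lower and none higher. Kcnh and Kcnj each had 1 gene higher and 1 lower, of 8 and 10 tested. Of the calcium- and sodium-activated group, 1 of 11 was lower, and of the Kcne genes, 1 of 4 was higher. No member of Kcna (6 tested), Kcnab (3), Kcnb (2), Kcnc (4), Kcnd (3), Kcnip (4) or Kcnq (5) passed in either direction. At an unadjusted p under 0.05 there were 18 members in all, 9 in each direction. That is 22.8% of the 79, a smaller share than the 35.7% of all genes.

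**Figure D3:**
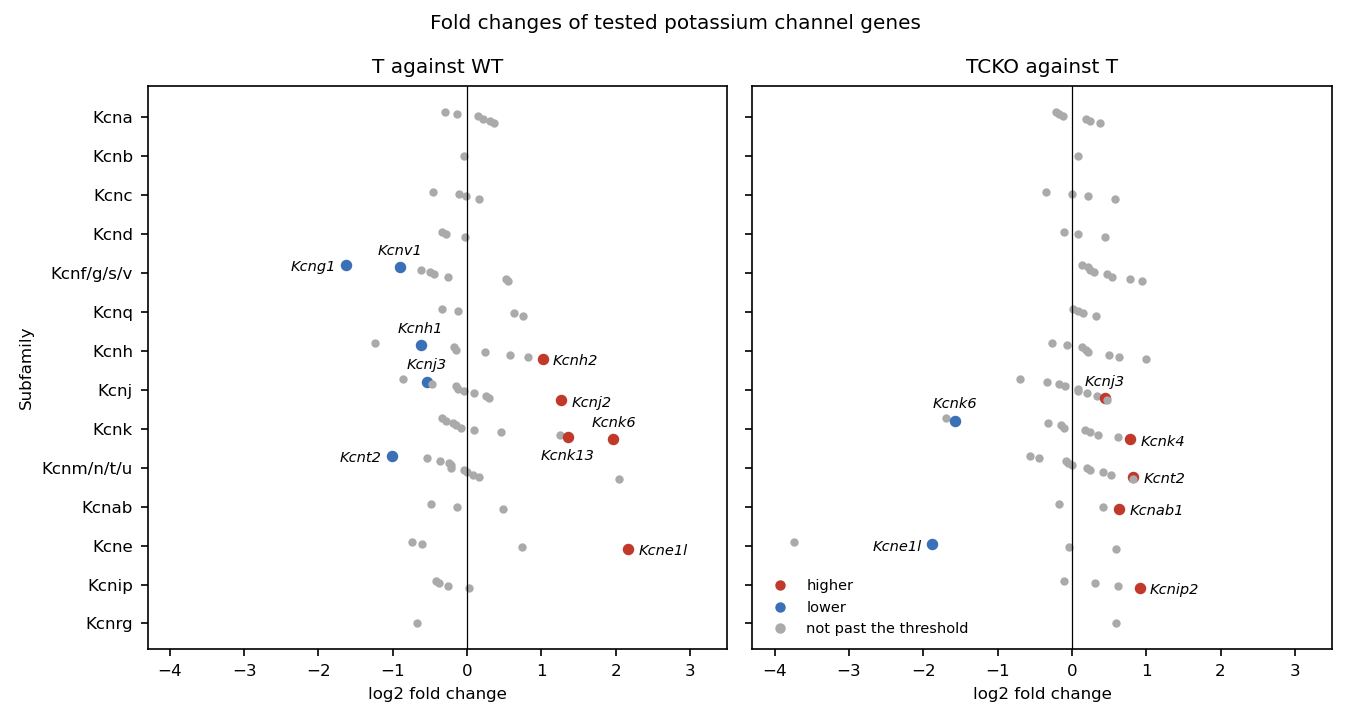
Log2 fold change (horizontal axes) of 77 tested potassium channel genes by subfamily (vertical axis) in T against WT (left) and TCKO against T (right); points are genes, colored where past the adjusted threshold of 0.05. The drawn genes past the threshold are named, 10 on the left and 7 on the right, and both panels use the same T libraries.

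The second comparison, CKO against WT, asks what the loss of Ch25h did without the tau transgene. No member passed in either direction with edgeR, against 0% of all genes called higher and 0.0108% called lower. At an unadjusted p under 0.05 there were 10 members higher and 2 lower, which is 15.2% of the 79 against 11.3% of all genes. DESeq2 called 1 member lower, against 55 of the 18565 genes, and limma voom called 0 members. The median log2 fold change of the members was 0.10, against -0.01 for all genes.

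The member called by DESeq2, Kcne4, an auxiliary subunit that damps Kv1 currents, falls outside the rule for named genes and was chosen after its values were seen. It had 2.0, 1.33, 1.87 and 1.73 CPM in WT and 0.328, 0.388, 0.325 and 0.808 CPM in CKO. The groups did not overlap, and the log2 fold change was -1.87 ± 0.44 (edgeR adjusted p = 0.201). Kcnc1, the fast-spiking channel Kv3.1, had 33.0, 34.1, 37.9 and 39.7 CPM in WT and 48.8, 46.3, 46.5 and 46.2 CPM in CKO. These groups did not overlap either, at a log2 fold change of 0.38 ± 0.13 (edgeR adjusted p = 0.337).

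Summed over all members, the level was 926 ± 66.1 TPM in WT (857 to 994) and 1158 ± 45.3 TPM in CKO (1107 to 1217), so the libraries did not overlap. It was 859 ± 60.7 TPM in T (775 to 905) and 1069 ± 143 TPM in TCKO, where replicate 3 had 857 TPM and the other 3 had 1118 to 1173 TPM. Kcnab2 gave a large part of this, at 301 ± 22.2 TPM in CKO, 263 ± 52.7 in TCKO, 202 ± 47.4 in WT and 187 ± 25.0 in T. The ranges of mean ± SD of neighbours in that order overlapped. CKO and WT are not neighbours there, and every CKO library (277 to 330 TPM) lay above every WT library (150 to 252 TPM). In CPM the libraries of CKO and WT overlapped, at a log2 fold change of 0.41 ± 0.17 (edgeR adjusted p = 0.401). Without Kcnab2 the members held 0.182% to 0.194% of reads in WT and 0.215% to 0.223% in CKO. The mitochondrial share of reads was 9.19% ± 0.534 in WT and 7.61% ± 0.743 in CKO, and 8.60% ± 0.352 in T and 7.72% ± 0.172 in TCKO. Excitatory neuron marker medians were -0.17 to 0.22 in WT and 0.23 to 0.32 in CKO on the log2 scale around the WT mean. Hippocampal subfield medians were -0.36 to 0.42 in WT and 0.27 to 0.55 in CKO. The part of these measures in the sums was not tested.

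Kcne2, an auxiliary subunit that is abundant in the choroid plexus, had the largest negative fold change in CKO against WT among the members; it was chosen after its values were seen. It stood at 46.0, 1.19, 0.684 and 0.0706 CPM in WT and at 1.46, 0.257, 77.5 and 0.968 CPM in T. The CKO libraries had 0.246, 0.129, 0.976 and 0.147 CPM, and the TCKO libraries 1.60, 2.85, 0.408 and 1.05 CPM. The 2 high libraries were WT replicate 1 and T replicate 4, the same 2 that stood apart in choroid plexus markers. The log2 fold change of -5.18 ± 1.98 in CKO against WT did not pass (edgeR adjusted p = 0.373), and the other 3 WT libraries lay between 0.0706 and 1.19 CPM.

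**Figure D4:**
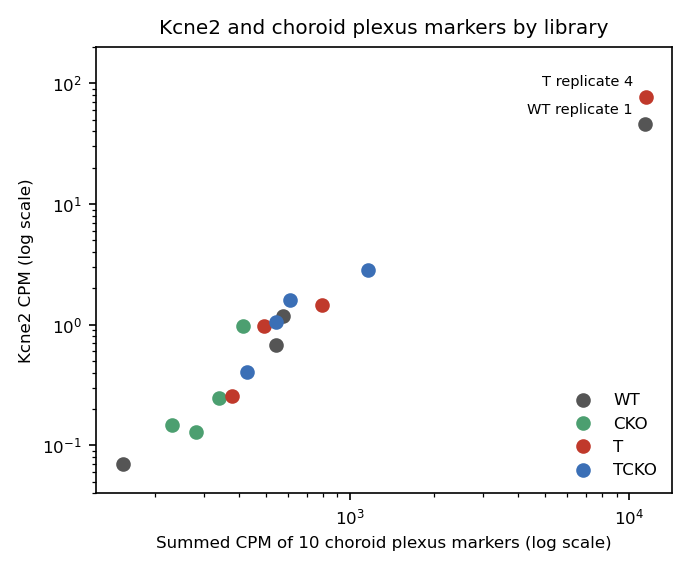
Kcne2 in TMM-scaled CPM (vertical axis, log scale) against the summed CPM of 10 choroid plexus markers (horizontal axis, log scale), 1 point for each of the 16 libraries, colored by genotype. WT replicate 1 and T replicate 4 lie at the top right, with 46.0 and 77.5 CPM of Kcne2, and no other library exceeds 2.85 CPM.

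The third comparison, TCKO against T, asks what the loss of Ch25h did in mice with the tau transgene. It uses the same T libraries as T against WT, so values from the 2 comparisons are set side by side below and are not independent of each other. Of the 79 members, 6 were higher in TCKO and 2 were lower, while over all genes 4.81% were called higher and 8.05% lower. The median log2 fold change was 0.19 for the members and 0.02 for all genes, and 53 of the 79 values were positive (67.1%, against 52.4% of all genes). In 12 members the libraries did not overlap, against 14.8% of all genes. The 2 lower genes were Kcne1l and Kcnk6, and the higher genes included Kcnip2, Kcnt2, Kcnk4, Kcnj3 and Kcnab1.

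Kcne1l was 7.42, 8.24, 7.64 and 6.71 CPM in TCKO, against 26.0 to 31.7 CPM in T. The TCKO libraries were tightly grouped (7.5 ± 0.63 CPM) and far below each T library. Its log2 fold change was -1.89 ± 0.19 (edgeR adjusted p = 2.35e-05). Kcnk6 stood at 1.39, 1.11, 1.56 and 0.897 CPM in TCKO, below all T libraries (2.65 to 4.39 CPM), with a log2 fold change of -1.57 ± 0.30 (adjusted p = 0.00203). Both calls were made in all 27 alternatives.

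The other 3 genes that rose in T were not past the threshold here. Kcnk13 had 9.54, 13.2, 8.90 and 11.7 CPM in TCKO, within the T range of 7.37 to 19.96 (log2 fold change -0.32 ± 0.27, edgeR adjusted p = 0.482). Kcnj2 had 14.96, 7.98, 9.56 and 11.0 CPM, with replicate 2 inside the T range (-0.70 ± 0.39, adjusted p = 0.263). Kcnh2 in TCKO split into 1.52 and 1.99 CPM in replicates 2 and 5 and 4.06 and 4.41 CPM in replicates 3 and 4 (-0.07 ± 0.29, adjusted p = 0.901). In the list of 5 microglial channels, 1 was lower in TCKO and none was higher. Of 10 microglia markers 8 were lower, with a summed level of 752 to 1297 CPM in TCKO.

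Kcnip2 (ENSMUSG00000025221, chr19:45791839-45816061), the KChIP2 subunit of A-type Kv4 channels, had 32.4, 39.9, 45.3 and 51.7 CPM in T and 60.4, 75, 101 and 82.1 CPM in TCKO. All TCKO libraries lay above all T libraries and above 3 of the 4 WT libraries (46.8, 70.6, 55.8 and 53.0 CPM). The log2 fold change in TCKO against T was 0.91 ± 0.17 (edgeR adjusted p = 0.00216), called in all 27 alternatives, and that in T against WT was -0.42 ± 0.17 (adjusted p = 0.0881).

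Kcnt2 was 18.3, 16.9, 12.9 and 17.2 CPM in TCKO, above the T libraries, and 3 of the 4 lay within the WT range of 15.96 to 22.1 CPM. The log2 fold change was 0.82 ± 0.21 (edgeR adjusted p = 0.0152), and the call was lost when only the 8 libraries compared were fitted (adjusted p = 0.0697). Kcnj3 was 99.1, 71.5, 96.5 and 91.5 CPM in TCKO, and replicate 3 lay just above the highest T libraries at 70.9 CPM. Its log2 fold change was 0.45 ± 0.13 (adjusted p = 0.0326). Leaving out T replicate 2 or 3 or TCKO replicate 2, 4 or 5 put its adjusted p between 0.0686 and 0.122.

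Kcnk4 (ENSMUSG00000024957, chr19:6923966-6934515), the mechanosensitive leak channel TRAAK of neurons, had 5.57, 5.90, 5.73 and 8.18 CPM in T and 10.5, 10.3, 10.05 and 12.95 CPM in TCKO. The groups did not overlap, with a log2 fold change of 0.78 ± 0.21 (edgeR adjusted p = 0.0202). The adjusted p was 0.0574 to 0.0735 without T replicate 2, 3 or 4 or TCKO replicate 5. CKO had 10.7, 12.9, 8.91 and 10.1 CPM, 3 of them within the TCKO range, and the CKO against WT value was 0.67 ± 0.21 (adjusted p = 0.321).

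Kcnab1 (ENSMUSG00000027827, chr3:65109384-65378223) had 117, 135, 150 and 136 CPM in T and 270, 164, 164 and 240 CPM in TCKO. The groups did not overlap, and the log2 fold change was 0.64 ± 0.19 (adjusted p = 0.0349). It was lost without T replicate 2, 3 or 4 or TCKO replicate 2 or 5 (0.0501 to 0.120).

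TCKO replicate 3 had the lowest value of its group in several neuronal channels, such as Kcnd2 (67.0 CPM, against 104 to 120 in the other 3). Its marker medians were low as well, at -0.36 for excitatory neuron markers (0.25 to 0.54 in the other 3, log2 scale around the WT mean) and -0.34 for hippocampal subfield markers (0.37 to 0.54). The part of these in the channel values was not tested. Without that library 12 members were called higher in TCKO. Without T replicate 2 or T replicate 3 the count was 2, and without T replicate 4, TCKO replicate 2 or TCKO replicate 5 it was 3. The genes lower in T against WT that did not pass here were Kcnh1 (0.50 ± 0.16, edgeR adjusted p = 0.0542), Kcnv1 (0.78 ± 0.31, adjusted p = 0.104) and Kcng1 (0.94 ± 0.40, adjusted p = 0.129). Of the 10 pan-neuronal markers 4 were higher in TCKO, with a summed level of 7431 to 10849 CPM, and their part in the channel values was not tested.

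**Figure D5:**
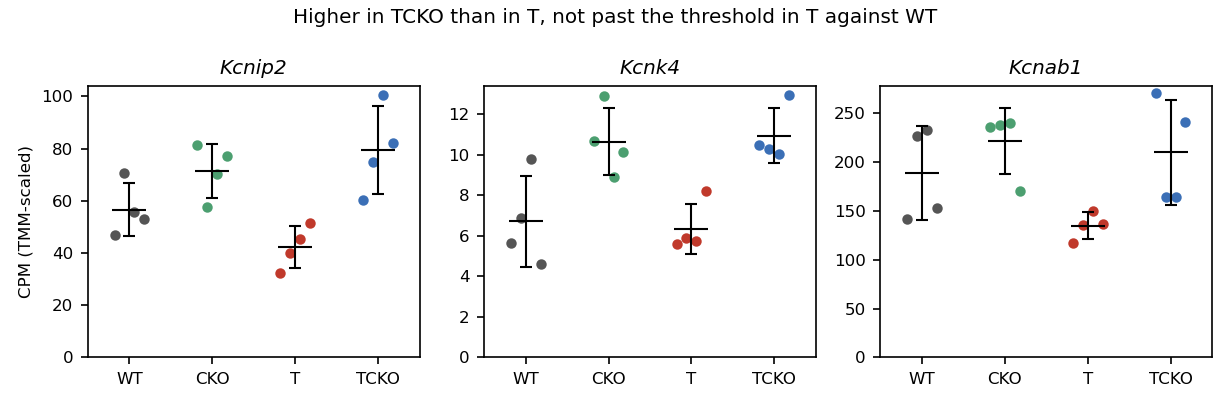
TMM-scaled CPM (vertical axes, from 0) in the 4 genotypes (horizontal axes) for 3 potassium channel genes higher in TCKO than in T that were not past the threshold in T against WT; points are libraries, the bar is the mean and the whiskers are the SD of 4 libraries. Kcnip2 spans 32.4 to 51.7 CPM in T and 60.4 to 101 CPM in TCKO.

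In the fourth comparison, TCKO against CKO, which asks what the transgene did without Ch25h, no member passed with edgeR. The background was 0.350% of genes called higher and 0.189% lower. At an unadjusted p under 0.05 there were 8 members higher and 4 lower, which is 15.2% of the 79 against 17.5% of all genes. DESeq2 called 1 member higher, against 494 of the 18565 genes, and limma voom called 0 members. The member called by DESeq2 was Kcnk13, which had 4.83, 4.87, 4.23 and 5.66 CPM in CKO, below all TCKO libraries, at a log2 fold change of 1.14 ± 0.28 (edgeR adjusted p = 0.0693). Kcne1l, at 3.40, 6.51, 3.90 and 5.80 CPM in CKO, also lay below all TCKO libraries, at 0.61 ± 0.20 (adjusted p = 0.137). Without T replicate 5 Kcnk13 was called higher (0.0482). In this comparison 3 of 10 microglia markers were higher.

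The interaction term sets the transgene's effect without Ch25h against its effect with Ch25h. It was past the threshold for 1 member, Kcne1l, at -1.56 ± 0.27 on the log2 scale (edgeR adjusted p = 0.00611), against 0.695% of all genes higher and 2.45% lower. The transgene's log2 fold change of this gene was 2.17 with Ch25h and 0.61 without it. In the same test 8 of 10 microglia markers and 2 of 8 astrocyte markers were lower, and their part in the values of Kcne1l and Kcnk6 was not tested. Kcnk6 had an interaction of -1.50 ± 0.43 (adjusted p = 0.066), and with the replicate block its adjusted p was 0.0315 and the count of members lower was 2. Leaving out T replicate 5 or TCKO replicate 4 also gave 2, with adjusted p-values for Kcnk6 of 0.0366 and 0.0459. Kcng1 was called higher without CKO replicate 5 (adjusted p = 0.0308), and Kcnv1 without T replicate 5 (0.0366). For the genes higher in TCKO than in T, the interaction did not pass: it was 0.73 ± 0.29 for Kcnt2 (0.182), 0.46 ± 0.18 for Kcnj3 (0.189) and 0.57 ± 0.24 for Kcnip2 (0.213). The interaction was smaller for Kcnab1, at 0.41 ± 0.27 (edgeR adjusted p = 0.439), and for Kcnk4, at 0.12 ± 0.29 (0.879).

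Genes that work beside potassium channels were counted in the same fit. Of 16 tested partner proteins, 4 fell and 1 rose in T against WT, and 5 rose and none fell in TCKO against T. Over all genes, 24.2% were called in either direction in the first comparison and 12.9% in the second. Adam22 and Lgi1, a receptor and its secreted ligand that tether Kv1 channels at axons, had log2 fold changes of -0.70 ± 0.16 and -0.63 ± 0.17 in T against WT and 0.54 ± 0.16 and 0.55 ± 0.17 in TCKO against T. Dpp6, the partner of Kv4 pores, had -0.36 ± 0.09 and then 0.42 ± 0.09. The scaffold gene Dlg2 had -0.57 ± 0.14 and 0.46 ± 0.14. Cntn2, an axonal adhesion gene that oligodendrocytes also express, was the 1 that rose in T, at 0.88 ± 0.30 (edgeR adjusted p = 0.0409), where 4 of 8 oligodendrocyte markers rose too.

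The 4 HCN pacemaker genes, whose channels pass a mixed cation current, had no call in any of the 5 tests. Of 8 voltage-gated sodium channel genes of neurons, 4 fell and 1 rose in T against WT, and 4 rose in TCKO against T. Scn2a, the pore gene of the axon initial segment, had a log2 fold change of -0.82 ± 0.14 (edgeR adjusted p = 0.000456) and then 0.47 ± 0.14 (0.0348). The beta subunit gene Scn2b had -0.63 ± 0.11 (0.000477) and 0.69 ± 0.11 (0.000376), and its interaction was 0.57 ± 0.15 (0.0494).

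Marker lists of other cells gave the following counts for T against WT, with TCKO against T after it. Astrocyte markers had 4 of 8 higher, then 4 lower. Endothelium and pericyte markers had 3 of 9 higher, then 3 lower, and oligodendrocyte markers 4 of 8 higher, then none called. Choroid plexus markers had none of 10 called in either, and excitatory neuron markers had none of 8, then 1 higher. Inhibitory neuron markers had 1 of 10 lower, then none. Hippocampal subfield markers had 2 of 10 lower, then 4 higher. Markers of thalamus and striatum had 2 of 10 higher and 2 lower, then 2 lower. In CKO against WT no list had a member past the threshold.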

How the data were processed

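RNA-seq libraries were made with an oligo-dT based low-input kit, per the labels' protocols. The submitters' processing notes name bcl2fastq, STAR 2.5.1a, Subread, featureCounts 1.4.6-p5 and GRCm38 without roles; the program and the annotation that gave the deposited values are both not given in the sources used here. For each gene and library, the authors deposited estimated counts (not all whole: 74.53% of values above 0 were), TPM and an effective length, as named in the file headers. Lines that repeat a gene (287 of 55774) were dropped, leaving 55487 genes. After rounding, the estimated counts went into edgeR 4.0.16 under R 4.3.3 (TMM factors, filterByExpr by genotype, glmQLFit and glmQLFTest) in 1 fit over all 16 libraries with a mean per genotype. P-values were adjusted by Benjamini-Hochberg over the 18565 genes tested, with a threshold of 0.05, and SE is the fold change divided by the square root of F. CPM values use TMM library sizes, and the deposited TPM values were averaged with no test. The fit was tested on simulated data with known changes.

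Alternatives were DESeq2 1.42.0, limma 3.58.1 (voom), other size factors and filters, an effective length offset, the compared libraries alone, each library left out, and a replicate block. Deviations from the group means correlated at 0.121, 0.137 and 0.304 over genes between same-numbered WT and T libraries. Differently numbered libraries were not compared in this way, and the labels do not say what a number marks. These values cannot decide whether a replicate block is called for. The main fit was run without one, and the block was run as an alternative. For TCKO and T the correlations were -0.142 to 0.169, and no pairing was assumed. They were -0.051 to 0.272 for WT and CKO and 0.101 to 0.143 for CKO and T. TCKO gave -0.048 to 0.135 with WT and -0.025 to 0.041 with CKO.

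The members and gene lists were chosen with earlier results of these data known. Named were the members past the threshold (up to 15 each way for each comparison), the highest member by TPM of each subfamily, the 5 microglial channels, and up to 4 members past the threshold of each other list. Counting is not stated to use strand, so reads of genes that overlap others in the annotation (such as Kcnh1 with Hhat, Kcnk4 with Catsperz, Kcnab2 with Nphp4, and Kcnt2, Kcnj3, Kcnh2, Kcnk13, Kcnab1, Kcnk1, Kcnd2, Kcnma1, Kcnip3 and Kcna3 with noncoding genes) cannot be assigned with certainty. Gene coordinates are from GENCODE M21 on GRCm38. Some genes that the rule names are counted but not reported here by name or drawn.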

Additional observations from a re-analysis of the deposited data

Results flagged for a closer look

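The highest or lowest library stood apart from the other 3 of its genotype in 8 of 96 checks (24 named genes in 4 genotypes). Chance alone gives about 1 in 20 for independent checks. These checks share the same 16 libraries, and the genes were partly named for their calls, so the count cannot be weighed against that rate. The value given is the gap to the nearest library as a share of the whole range. In CKO, replicate 5 was low for Kcnab1 (0.948; 170 CPM against 236 to 240) and for Kcnh1 (0.840), replicate 1 was high for Kcnc1 (0.909), and replicate 4 was low for Kcnv1 (0.984; 45.3 CPM against 53.8 to 54.0). In T, replicate 2 was high for Kcne1l (0.838), and replicate 5 was high for Kcnk4 (0.874). In TCKO, replicate 5 was high for Kcnk4 (0.860) and replicate 3 was high for Kcnn4 (0.845; 46 reads against 1 to 7).

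The effect of the tau transgene on Kcne1l differed between mice with and without Ch25h, with an interaction of -1.560 on the log2 scale.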

How the results depend on the processing

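Over the alternatives, 3111 of 3209 values kept direction and side of the threshold, 70 lost and 28 gained a call, and none reversed. Leaving out each library in turn gave 3 to 6 members higher and 4 to 9 lower in T against WT, 2 to 12 higher and 2 lower in TCKO against T, 0 to 1 higher and 0 to 1 lower in TCKO against CKO, 0 to 1 higher and 1 to 2 lower in the interaction, and 0 in CKO against WT. T against WT had 3 higher without WT replicate 5 and 9 lower without T replicate 5. DESeq2 called 1 member lower in CKO against WT, 1 higher in TCKO against CKO (so did no filter, and the 8 libraries alone), and 1 higher and 2 lower in the interaction; a filter of at least 1 CPM also gave 2 lower there. The 8 libraries alone gave 3 higher in TCKO against T. The causes were not tested.

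With the replicate block, T against WT had 4 higher and 4 lower, and the interaction 2 lower. In TCKO against T, where no pairing was assumed, the block gave Kcnab1 an edgeR adjusted p of 0.0531. Without WT replicate 1 and T replicate 4, the choroid-rich libraries, T against WT had 4 higher and 4 lower. The block without those 2, an alternative chosen after seeing the data, gave 2 higher and 1 lower in T against WT and 2 higher in TCKO against T; fewer libraries were fitted there.

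Depth limits the members at a few reads, such as Kcnn4.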
